A study of Mus musculus with 6 samples.

Results

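The Sox genes encode transcription factors that bind DNA through a high mobility group (HMG) box, and 8 of them were examined here: Sox9 and Sox8 of the SoxE group, Sox5, Sox6 and Sox13 of the SoxD group, and Sox4, Sox11 and Sox12 of the SoxC group. They were taken by platform gene symbol from the 18193 genes that the array annotation names, and 33 probe sets, each a group of short probes for one transcript, carried one of these symbols. The cells were C3H10T1/2, a mouse mesenchymal line that can form fat, cartilage and bone in culture. The BMP4 group (3 samples) received 50 ng/ml of BMP4, a secreted bone morphogenetic protein, while proliferating, and the control group (3 samples) was handled alike without it. RNA of both groups was taken after confluence, with 1 single-colour array for each sample. The study asked which genes respond to BMP4 as these cells commit to the adipocyte lineage. All data come from 1 cell line. Whether replicates were grown as separate cultures is not stated in the labels, and the p-values therefore reflect sample-to-sample spread that may be technical in part or whole.

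Sox proteins bend DNA at short AT-rich sites built around the letters AACAAT or AACAAAG, and they usually act together with partner factors. Sox9 is required for cartilage formation, where BMP signalling is one of its inducers. Sox5 and Sox6 lack a transactivation domain of their own and help Sox9 to switch on cartilage matrix genes. Sox4, Sox11 and Sox12 share a C-terminal activation domain and act in progenitor cells of many tissues.

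The signals are linear, in array units, and the trimmed mean was 150 on every array. Background was judged from 27 control probe sets for Bacillus subtilis transcripts, whose highest signal on any array was 29.1. It was reached in BMP4 replicate 2. Their highest signal was 23.5 in BMP4 replicate 1, 24.1 in BMP4 replicate 3, and 16.6 to 21.0 in the control replicates. The common level of 29.1, used throughout as background, is thus stricter for the control group. Between 56.0% and 59.0% of the non-control probe sets exceeded that level on the BMP4 arrays, against 54.4% to 55.7% on the control arrays. All 8 mesenchymal markers listed (Col1a1, Col1a2, Vim, Pdgfrb, Thy1, Prrx1, Twist1 and S100a4) were above it on all arrays, and 1 of them by its brightest probe set, Twist1, a helix-loop-helix factor, fell (log2 change of -0.48, limma adjusted p = 0.044, but 0.107 without the filter on low signal). A dimmer probe set of Prrx1, a homeobox factor, also fell (-0.49, limma adjusted p = 0.0014), while its brightest gave -0.18 (0.209). Of the 5 early BMP-Smad response genes Id1, Id2, Id3, Smad6 and Smad7, 0 rose and 1 fell, namely Id2 (-0.40, limma adjusted p = 0.0225, but 0.06 without the filter), while Smad6 was at an unadjusted p under 0.05 and higher. Over all 12966 genes tested 5.03% rose and 5.66% fell. Signals of different probe sets depend on the probes, so no Sox gene's level is set against another's.

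Sox9 signal was higher in BMP4-treated cells than in control cells. Sox6 also passed the test, but near background and less firmly, since its call was lost under 6 of the 16 alternatives that tested it. The other 6 Sox genes had no probe set past the test. Of the 33 Sox probe sets, 12 from 5 genes passed the filter on low signal (mean log2 signal above the 40th percentile, which corresponds to a signal of 23.5). Among these 12, 3 rose (2 for Sox9 and 1 for Sox6) and 0 fell at a limma adjusted p of 0.05. At an unadjusted p under 0.05 the numbers were 4 and 0. The Sox6 probe set passed the filter by virtue of its BMP4 values, and without the filter its limma adjusted p was 0.0759. Over all 27022 probe sets tested 4.2% rose and 4.91% fell. The median log2 change of all 33, filtered or not, was 0.15, against 0.04 over all 45037 probe sets. Over all 33 Sox probe sets, filtered or not, the 3 BMP4 arrays lay wholly above the 3 control arrays at 9 and wholly below at 0. Over all 45037 probe sets this held for 12.5% and 9.4%. The 9 were 2 of 4 SoxE, 6 of 12 SoxD and 1 of 17 SoxC probe sets, with median log2 changes over all probe sets of each group of 0.75, 0.24 and 0.12. By gene, they were 2 probe sets of Sox9, 4 of Sox6, 2 of Sox5 and 1 of Sox4. Probe sets of the same gene are not independent. The genes were chosen with earlier results of these data known, so these counts describe the family and are no independent evidence of its direction.

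**Figure D1:**
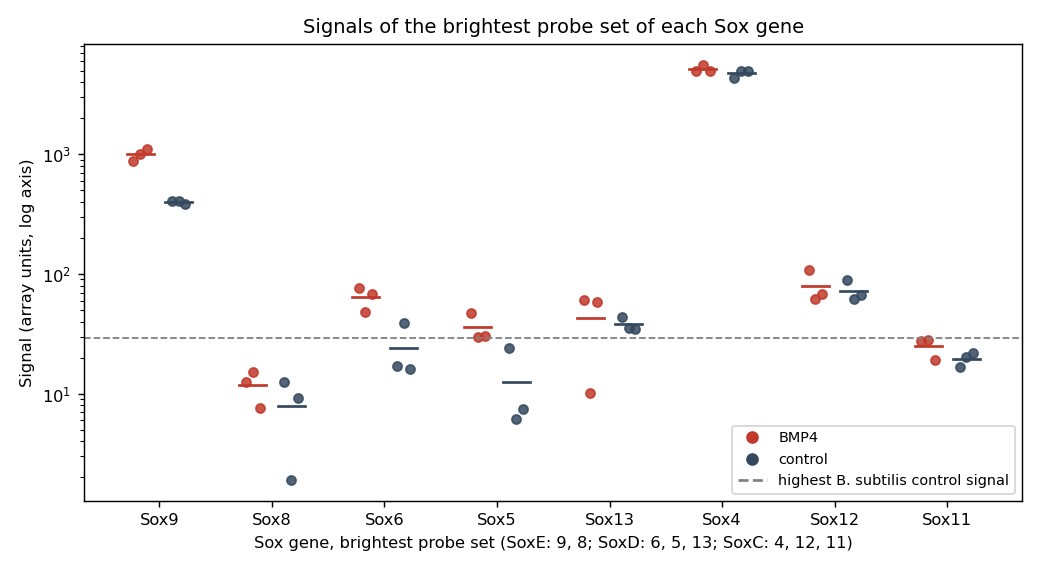
Signal (log axis, array units) of the probe set with the highest mean for each of the 8 Sox genes, with 1 point per array, BMP4 left of control, and a bar at the mean of 3 arrays. The BMP4 points lie above the control points for Sox9, Sox6 and Sox5, the control points of Sox6 (2 of 3) and Sox5 (3 of 3) lie under the dashed line at 29.1, and all points of Sox8 and Sox11 do so too.

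Among the SoxE genes, Sox9, the factor that directs cartilage formation, was clearly measured and higher with BMP4. Its probe set 1424950_at had signals of 877.8, 1014.5 and 1117.0 on the BMP4 arrays, against 403.9, 404.2 and 385.3 on the control arrays. The lowest BMP4 array was thus well above the highest control array. The means were 1003 ± 120 with BMP4 and 398 ± 10.8 without it (SD, n = 3 each), a ratio of 2.52. On the log2(signal + 16) scale used for all tests here, which understates the change of dim probe sets, Sox9 rose by 1.29 ± 0.09 (SE; 95% interval 1.10 to 1.49; limma adjusted p = 6.52e-06). That change ranked 56 from the top among 27022 probe sets. In bulk RNA, more Sox9 per cell and more cells with Sox9 cannot be told apart, and the same holds for each gene below.

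A second Sox9 probe set, 1451538_at, gave 544.9, 488.5 and 732.6 with BMP4, against 225.6, 270.4 and 206.1 without it. The ratio of its means was again 2.52, and the log2 change was 1.26 ± 0.14 (SE, limma adjusted p = 0.000208). The third, 1433889_at, stayed near background, with 33.8, 26.7 and 19.1 with BMP4, against 27.7, 34.2 and 26.3 without it. Its groups overlapped (log2 change of -0.10, 95% interval -0.55 to 0.34, limma adjusted p = 0.812), so 2 of the 3 Sox9 probe sets carry the rise. Both calls held under all 17 alternative settings, with log2 changes of 1.20 to 1.39 for 1424950_at and 1.10 to 1.38 for 1451538_at.

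Sox8, the close relative of Sox9 that can act in some of the same tissues, was measured by 1 probe set that did not pass the filter. Its signals were 12.5, 15.2 and 7.6 with BMP4 and 12.5, 1.9 and 9.2 without it. All 6 lay under 29.1, so no change of Sox8 was detectable at this signal.

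Among the SoxD genes, Sox6, a partner of Sox9 on cartilage matrix genes, was higher with BMP4 at low signal. Its brightest probe set, 1434918_at, had 77.0, 47.8 and 67.7 on the BMP4 arrays, against 17.1, 38.6 and 16 on the control arrays. All BMP4 arrays exceeded the background level, and 1 of the 3 control arrays did. The other 2 control values were also under the filter's signal of 23.5, so that the probe set was tested by virtue of its BMP4 values. The means were 64.2 ± 14.9 with BMP4 and 23.9 ± 12.7 without it (SD, n = 3 each), and the log2 change was 1.03 ± 0.24 (SE; 95% interval 0.50 to 1.57; limma adjusted p = 0.0217). This call is close to the threshold. It was lost without BMP4 replicate 1 (limma adjusted p = 0.0715), BMP4 replicate 3 (0.0684), control replicate 1 (0.086) or control replicate 3 (0.0774), and over the left-out arrays the log2 change ranged from 0.90 to 1.28. It was also lost without the filter (adjusted p = 0.0759) and without the intensity trend (0.0579). The call held with pseudocounts of 1 and 64, but the log2 change was 1.47 (adjusted p = 0.0268) with the first and 0.55 (0.0189) with the other.

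The other 3 Sox6 probe sets were too dim for the filter, yet on each of them the 3 BMP4 arrays lay above the 3 control arrays. Probe set 1427677_a_at had 23.4, 28.0 and 45.7 with BMP4, against 10.7, 9.5 and 3.1 without it. Probe set 1447655_x_at, of a type that can also bind related transcripts, had 10.7, 37.4 and 39.9 with BMP4, against 2.3, 9.1 and 9.4 without it. Probe set 1426018_a_at had 19.3, 19.8 and 22.5 with BMP4, against 12.6, 15.8 and 16.6 without it, all under background. When fitted without the filter these 3 had log2 changes of 1.01, 0.92 and 0.24, with limma adjusted p of 0.0558, 0.166 and 0.573. All 9 control values of these 3 probe sets lay under 29.1, and of their 9 BMP4 values 3 lay above it.

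Stretches before 2 of the Sox6 start sites are shown because Sox6 was the only one of the 7 Sox genes with an entry whose upstream windows, 4 of 6, held the letters that Sox proteins bind. They are the 250 bases before an annotated start, from RefSeq in build GRCm38.p6. Of the 8 Sox genes 7 had an entry among the upstream sequences used here (Sox9 did not and was not searched). The motifs searched were AACAAT and AACAAAG on both strands (ATTGTT and CTTTGTT on the other), with matches in capitals. A match to one motif cannot lie inside a match to the other.
Sox6, chr7:115824711-115824960, minus strand: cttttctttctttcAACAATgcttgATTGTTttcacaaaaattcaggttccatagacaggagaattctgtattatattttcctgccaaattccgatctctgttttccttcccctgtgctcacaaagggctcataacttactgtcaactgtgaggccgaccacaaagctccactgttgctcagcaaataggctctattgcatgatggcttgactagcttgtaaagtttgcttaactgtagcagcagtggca
Sox6, chr7:115846141-115846390, minus strand: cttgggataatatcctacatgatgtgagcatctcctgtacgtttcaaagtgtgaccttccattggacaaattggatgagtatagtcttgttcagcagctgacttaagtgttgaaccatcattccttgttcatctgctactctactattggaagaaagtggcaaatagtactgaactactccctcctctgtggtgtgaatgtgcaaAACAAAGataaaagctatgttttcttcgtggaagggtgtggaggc
Counted from the start site, AACAAT begins at -236 and ATTGTT at -225 in the first window, an inverted pair with 5 bases between. In the second window AACAAAG begins at -45. Of all 32851 such windows 13.8% hold at least 1 of the motifs, and of the 12 windows of the 7 Sox genes 4 do, all of them of Sox6. The 6 Sox6 windows belong to 1 gene, and a match is a description of these letters, not a bound site.

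Sox5, the other partner of Sox9, had 7 probe sets, and 0 of them passed the filter. The brightest, 1452511_at, had 47.6, 29.9 and 30.3 on the BMP4 arrays, against 23.9, 6.2 and 7.5 on the control arrays. All 3 BMP4 values were above the background level of 29.1, 2 of them by less than 2 units, and all 3 control values were under it. Set against that level in place of the control values, the geometric mean of the BMP4 values was 1.21-fold that level. This value has no interval and rests mostly on the 47.6 of BMP4 replicate 1. Folds given below as at least use that level in the same way for the group that lay under it. Probe set 1455535_at had 27.6, 18.7 and 28.0 with BMP4, against 13.2, 7.5 and 13.9 without it, again without overlap but under background throughout. Fitted without the filter, these 2 probe sets gave log2 changes of 0.90 (95% interval 0.27 to 1.53, limma adjusted p = 0.138) and 0.57 (0.11 to 1.02, adjusted p = 0.198), neither past the threshold. The other 5 Sox5 probe sets had overlapping groups, all of them under background on all arrays, with log2 changes of -0.39 to 0.24.

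**Figure D2:**
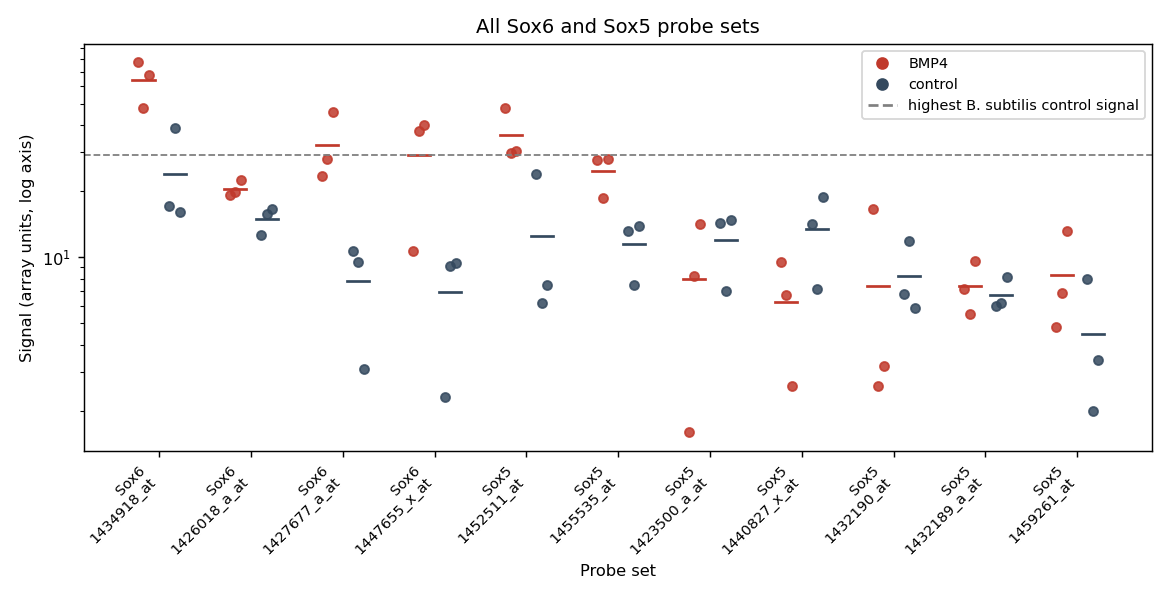
Signal (log axis, array units) of the 4 Sox6 and 7 Sox5 probe sets, with 1 point per array, BMP4 left of control, and a bar at the mean of 3 arrays. The groups separate at all 4 Sox6 and at 2 Sox5 probe sets, and all control points but 1, of Sox6 1434918_at, lie under the dashed background line at 29.1.

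Sox13, the third SoxD gene, gave no stable value. Its probe set 1450191_a_at had 60.7, 10.2 and 58.6 with BMP4, against 43.7, 35.6 and 35.0 without it. BMP4 replicate 2 was far under the other 5 arrays, and the log2 change was -0.02 (95% interval -0.80 to 0.76, limma adjusted p = 0.98). Without BMP4 replicate 2 it was 0.49 (limma adjusted p = 0.168). The sign also turned without control replicate 1 (0.05) and with a pseudocount of 64 (0.03).

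Among the SoxC genes, Sox4, a factor of many progenitor cells, was well above background in both groups at its brighter probe sets, with no call. It had 8 probe sets, of which 6 passed the filter and 0 were called. The brightest, 1433575_at, had 4996.0, 5603.9 and 4972.2 with BMP4 and 4369.3, 5010.3 and 4925.1 without it, and the groups overlapped. Its log2 change was 0.12 (95% interval -0.08 to 0.32, limma adjusted p = 0.466), an interval that lies wholly under that of Sox9 on 1424950_at. The log2 changes of the 6 tested Sox4 probe sets ran from 0.02 to 0.28. Its other 2 probe sets, 1458332_x_at and 1443778_at, were dim, with overlapping groups and signals of 2.5 to 34.5.

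The groups did not overlap at 1 Sox4 probe set, 1449370_at, with 637.8, 693.9 and 735.0 on the BMP4 arrays, against 540.9, 627.9 and 540.8 on the control arrays. Its log2 change of 0.27 (95% interval 0.09 to 0.45) had a limma adjusted p of 0.0712. It passed the threshold under 4 of the 17 alternatives, with adjusted p of 0.0455 to 0.0481. The probe set 1419156_at had 487.9, 472.6 and 453.5 with BMP4 and 482.1, 450.2 and 261.8 without it. Its log2 change of 0.28 was 0.02 without control replicate 3, the array with the low value.

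Sox12 was measured above background on all arrays by 1 of its 3 probe sets, 1455562_at, with 108.7, 61.7 and 68.2 with BMP4, beside 89.7, 61.6 and 66.8 without it. Groups overlapped almost wholly, and the log2 change was 0.09 (95% interval -0.35 to 0.53, limma adjusted p = 0.843). Its other 2 probe sets were under background on all arrays. Sox11, the third SoxC gene and a factor of neural progenitors, had 6 probe sets with signals of 0.3 to 28.0. All values lay under the common background level of 29.1, and the groups overlapped at all 6 probe sets. Set against each array's own highest Bacillus subtilis signal, 1429051_s_at was higher in BMP4 replicate 1 (27.7 against 23.5). The same held for control replicate 2 (20.1 against 16.6) and, barely, control replicate 3 (21.8 against 21.0). It was lower in BMP4 replicates 2 and 3 and control replicate 1. Whether Sox11 was present at a low level is therefore not settled for either group.

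**Figure D3:**
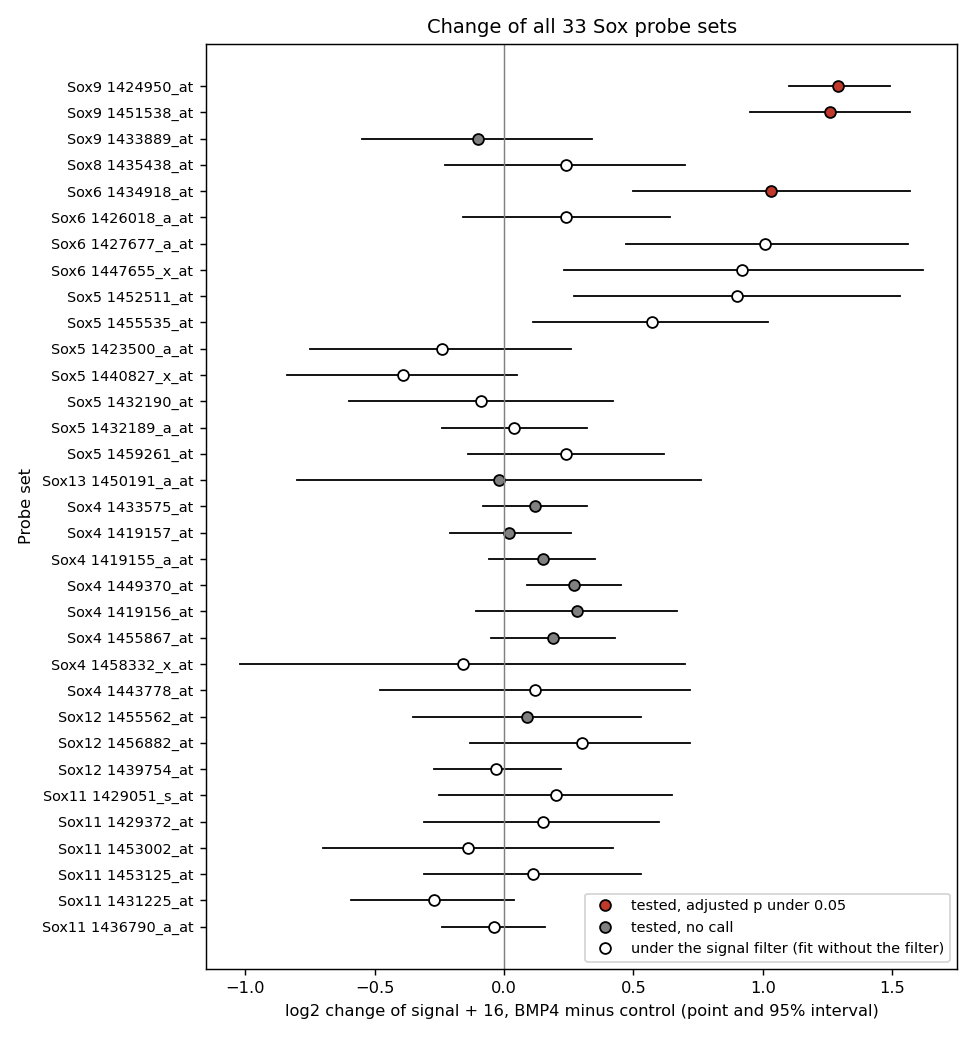
Log2 change of signal + 16, BMP4 minus control, with its 95% limma interval for all 33 Sox probe sets, ordered by gene. Filled points passed the signal filter (red where the adjusted p is under 0.05), open points did not and come from the fit without the filter, and the 3 red points are 2 of Sox9, at 1.29 and 1.26, and 1 of Sox6, at 1.03.

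The Sox genes outside the set of 8 showed no call. Of 12 further family members listed (Sry, Sox1, Sox2, Sox3, Sox7, Sox10, Sox14, Sox15, Sox17, Sox18, Sox21 and Sox30), 5 passed the filter, of which 0 rose and 0 fell (limma, and 0 at an unadjusted p under 0.05). Among these 5, by the brightest probe set of each gene, the smallest p belonged to Sox10, the SoxE factor of neural crest and glia. Its signals were 91.9, 86.9 and 96.5 with BMP4, beside 77.6, 86.8 and 67.9 without it. All BMP4 arrays lay just above the control arrays, and the log2 change was 0.21 (limma adjusted p = 0.392). A dimmer probe set of Sox3, a factor of neural progenitors, had a smaller p, with 25.9, 41.8 and 41.2 with BMP4, against 15.3, 34.4 and 11.6 without it. Its groups overlapped, and the log2 change was 0.56 (limma adjusted p = 0.233). The other 7 were under background on all arrays at their brightest probe set. One of them, Sox30, had 12.3, 11.9 and 7.2 with BMP4, against 6.2, 1.4 and 3.1 without it. Fitted without the filter, its log2 change was 0.44 (limma adjusted p = 0.162). By the brightest probe set of the 12 genes, the BMP4 arrays lay wholly above for 2 and wholly below for 0, against 12.5% and 9.4% of all probe sets.

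Genes that Sox9, Sox5 and Sox6 are known to activate in cartilage were higher with BMP4 in part. Of 22 such genes listed, 16 passed the filter, and of these 7 rose and 0 fell (limma adjusted p under 0.05, and the same 7 and 0 at an unadjusted p under 0.05). Over all 12966 genes tested 5.03% rose and 5.66% fell. The median log2 change of the 16 was 0.34, against 0.03 over all genes. Taking the brightest probe set of each of the 22 genes, filtered or not, the BMP4 arrays lay above the control arrays for 14 genes and below for 0, against 12.5% and 9.4% of all probe sets. The list holds cartilage genes already known from these data to be higher, so its count is no independent evidence.

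By the brightest probe set of each gene, the largest called changes of that list were those of Col2a1, Wwp2, Matn3 and Col9a1. Col2a1, which encodes the main cartilage collagen, had 517.7, 417.1 and 545.7 with BMP4, against 100, 111.3 and 144.9 without it, a ratio of means of 4.16 (log2 change of 1.92 ± 0.13, SE, limma adjusted p = 8.60e-06). Wwp2, a ubiquitin ligase gene that hosts the cartilage microRNA miR-140 and binds Sox9 protein, had 617.7, 603.2 and 853.6 with BMP4, against 157.8, 198.7 and 202.6 without it (1.80 ± 0.13, adjusted p = 1.43e-05). The groups of both genes were far apart, with the lowest BMP4 array above the highest control array.

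Matn3, a matrilin of the cartilage matrix, had 86.5, 52.1 and 63.2 with BMP4, against 30.5, 29.3 and 26.3 at background level without it, and its log2 value rose by 0.88 ± 0.19 (SE, with a limma adjusted p of 0.014). Without the filter on low signal the adjusted p of Matn3 was 0.0523. Col9a1, a collagen on the surface of cartilage fibrils, had 123.8, 104.8 and 106.1 with BMP4, against 76.1, 38.6 and 51.4 without it (0.87 ± 0.19, limma adjusted p = 0.0145). A second Col9a1 probe set, 1428571_at, had 140.7, 111.8 and 176.4 with BMP4 and was under background on all 3 control arrays, at least 4.83-fold higher (log2 change of 2.35, limma adjusted p = 0.000107). Its control mean of 15.6 was under the filter's signal of 23.5, so that this probe set was tested by virtue of its BMP4 values. Without the filter its limma adjusted p was 0.00145. The other 3 genes called higher were Col27a1, a fibrillar collagen (0.72), Matn4, a matrilin (0.71), and Epyc, a small proteoglycan of growth plate cartilage (0.65). A dimmer Col27a1 probe set, 1429549_at, rose more, by 1.10 (limma adjusted p = 0.000749).

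Cnmd, which encodes the cartilage protein chondromodulin, did not pass the filter and is named after its values were seen. Its signals were 67.1, 56.6 and 45.1 on the BMP4 arrays, against 3.3, 1.4 and 3.4 on the control arrays. It was measured in BMP4-treated cells and under background in control cells, at least 1.91-fold higher (log2 change of 1.94 in the fit without the filter, limma adjusted p = 0.00114).

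Other well-known matrix genes of cartilage gave no call. Acan, the large cartilage proteoglycan aggrecan, had 56.0, 57.5 and 31.5 with BMP4 and 49.8, 40 and 58.4 without it (log2 change of -0.04, 95% interval -0.50 to 0.42, limma adjusted p = 0.934). Col11a1, a fibril collagen also made by other mesenchymal cells, had 1180.2, 1104.9 and 1076.1 with BMP4 and 998.0, 1022.4 and 1038.5 without it (0.13, adjusted p = 0.257), while a dimmer probe set gave -0.18 (adjusted p = 0.25). Hapln1, which links aggrecan to hyaluronan, was under background on all arrays at its brightest probe set.

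**Figure D4:**
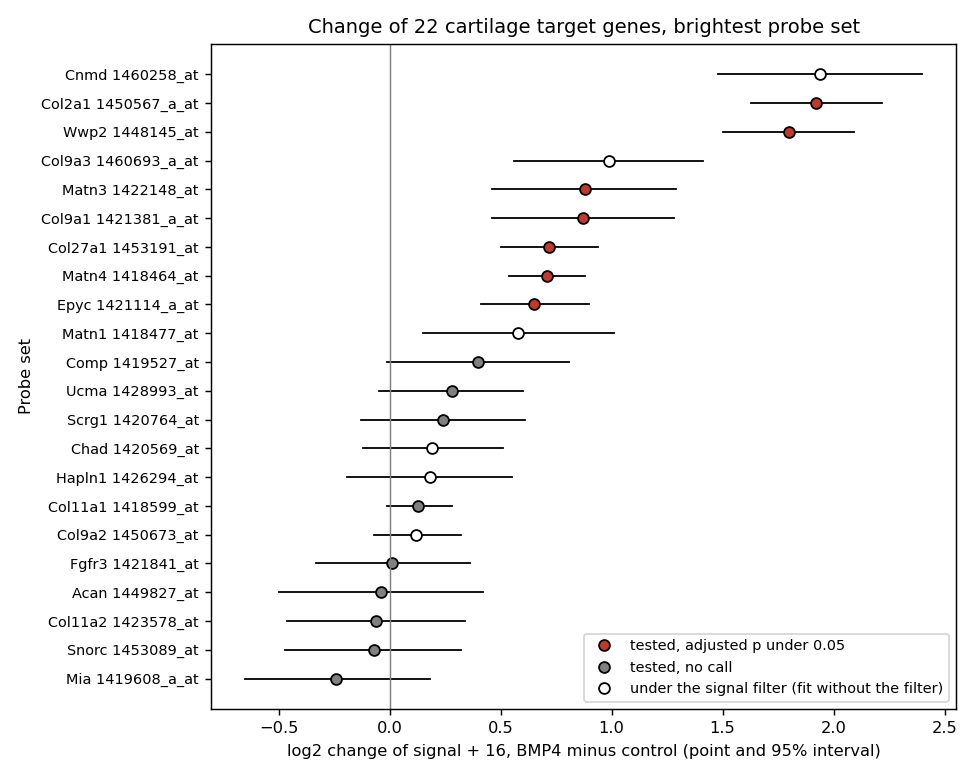
Log2 change of signal + 16, BMP4 minus control, with its 95% limma interval for the brightest probe set of each of 22 cartilage genes known to be activated by Sox9, Sox5 and Sox6. The 7 red points passed the test and lie between 0.65 and 1.92, and open points did not pass the signal filter and come from the fit without it.

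Of these 22 genes 17 had an entry among the RefSeq upstream sequences used here (Col2a1, Col9a3, Comp, Snorc and Scrg1 did not and were not searched). In the 250 bases before their annotated starts 1 gene, Epyc, held the Sox letters, in both of its windows. These are 2 of the 21 windows of the 17 genes, against 13.8% of all 32851 windows. The window with more matches is shown as the example among the genes that rose.
Epyc, chr10:97646853-97647102, plus strand: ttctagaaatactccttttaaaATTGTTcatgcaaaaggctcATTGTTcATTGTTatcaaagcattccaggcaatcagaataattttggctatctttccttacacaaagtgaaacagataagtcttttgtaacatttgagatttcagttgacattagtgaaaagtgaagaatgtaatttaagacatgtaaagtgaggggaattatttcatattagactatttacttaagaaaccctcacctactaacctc
ATTGTT occurs 3 times in it, the first at -228 and the next at -208 from the start site. The other 16 genes hold neither motif in these windows, which says nothing of sites elsewhere in the gene.

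The genes whose values over the 6 arrays were most like those of Sox9 were Ccn2, Aff3, P3h2, Rgs4 and S100b. Likeness was the root mean square difference in log2(signal + 16), each probe set centred on its own mean, from Sox9 probe set 1424950_at, over 12965 genes. It was 0.056 for Ccn2, a secreted matricellular protein, 0.086 for Aff3, a nuclear factor of transcription elongation, and 0.091 for P3h2, a collagen prolyl hydroxylase. It was 0.093 for Rgs4, a regulator of G protein signalling, and 0.103 for S100b, a calcium-binding protein of cartilage and glia, against a median of 0.66 over all genes compared. The 6 arrays fall into 2 groups, and the log2 changes of these 5 genes, 1.28 to 1.42 against 1.29 for Sox9, are part of this measure.

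**Figure D5:**
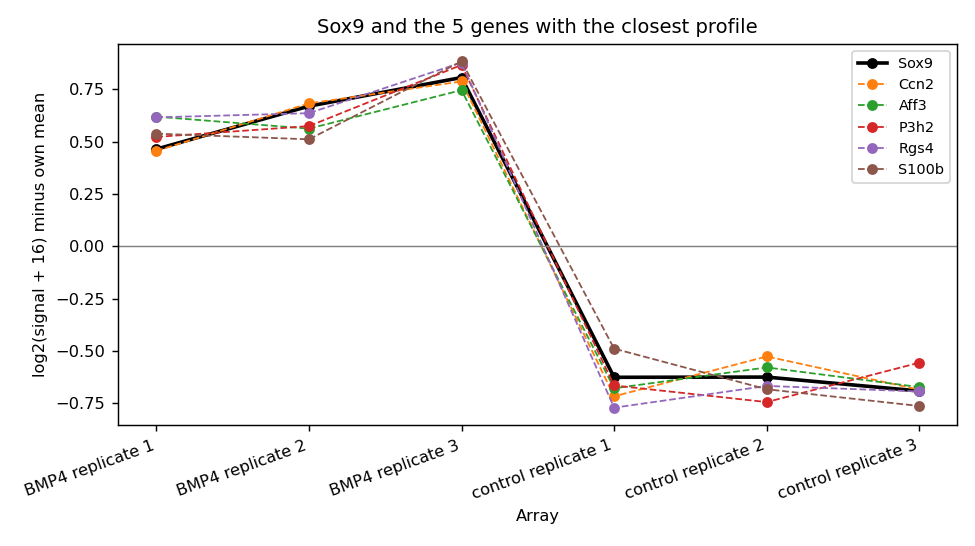
Log2(signal + 16) minus the probe set's own mean on each of the 6 arrays, BMP4 arrays left, for Sox9 (black) and the 5 genes closest to it. All 6 lines lie above 0 on the BMP4 arrays and under 0 on the control arrays.

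Markers of other cell types in which Sox genes act were also read. Of 4 glial and neural crest markers (Foxd3, Ngfr, S100b and Sox10), 2 passed the filter. Of these 1 rose and 0 fell, against 5.03% and 5.66% of all 12966 genes tested. That one was S100b, with 312.7, 306.6 and 401.7 with BMP4, against 145.3, 125.0 and 117.4 without it (log2 change of 1.29, limma adjusted p = 5.84e-05). Ngfr was under background on all arrays. The signal of the 4 summed to 410 to 540 on the BMP4 arrays and 202 to 270 on the control arrays, and S100b made up most of it. Of 6 endothelial markers (Pecam1, Cdh5, Kdr, Tek, Sox17 and Sox18), 4 passed the filter. Of these 0 rose and 1 fell, Tek, a receptor of blood vessel cells (-0.69, limma adjusted p = 0.0167). Pecam1 and Sox18 were under background on all arrays, and the summed signal was 148 to 234 with BMP4 and 246 to 251 without it. The part of other cells in the Sox values was not tested.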

How the data were processed

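The deposited values are linear signal intensities, 1 per probe set and array, which the authors computed in GCOS (version 1.3) according to the submitters' processing notes. Scaling and background settings: not given in the sources used here. No detection call was used.

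Of 45101 probe sets, the 64 control probe sets were left out. Of the rest, 34945 had 1 gene symbol, 932 several and 9160 none. Genes were named from the platform annotation and from single symbols, and 0 symbols changed against the GRCm38.p6 gene table. After 16 was added, log2 values were taken, 27022 probe sets above the 40th percentile were kept, and BMP4 was compared with control in limma 3.58.1 (R 4.3.3; lmFit, eBayes with an intensity trend, two-sided, Benjamini-Hochberg over all kept). The script was tested on simulated data. With 3 arrays per group, their number limits the precision. For listed genes the brightest kept probe set was used.

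The Sox members and all gene lists were chosen with earlier results of these data known. Named were all member probe sets, from each list the called genes with the largest changes, 4 at most, or else the gene of smallest p, every called other Sox gene, and the 5 genes most like Sox9. Alternatives were other pseudocounts and filters, 3 normalizations, other eBayes settings, array weights, a replicate block and leaving out each array. The lists cover mesenchymal, BMP response, cartilage, hypertrophic, coactivator, SoxC target, glial, endothelial, epithelial and leukocyte genes.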

Additional observations from a re-analysis of the deposited data

How the results depend on the processing

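The Sox count of 3 higher and 0 lower probe sets was 2 to 4 and 0 over 17 alternatives, and the cartilage count of 7 higher and 0 lower genes was 6 to 8 and 0. Over all probe sets, 1136 rose and 1328 fell. With arrays centred on their medians 632 rose, so that 25.1% of calls were higher, against 46.1% as deposited, and the median change was -0.07, against 0.03. Without the intensity trend 659 rose and 763 fell. Leaving out 1 array gave 768 to 945 higher and 845 to 1063 lower. Leaving out control replicate 1 or 2 moved the lower count most, to 845 and 854.

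Sign changes occurred among uncalled Sox probe sets. The log2 change of Sox4 1419157_at (0.02) was -0.07 with median centring, -0.00 with quantile normalization, -0.01 with cyclic loess, -0.05 and -0.03 without BMP4 replicate 2 or 3, and -0.03 without control replicate 1. That of Sox12 1455562_at (0.09) was -0.01 with centring, -0.12 without BMP4 replicate 1 and -0.00 without control replicate 2. That of Sox13 (-0.02) was 0.03 with a pseudocount of 64, 0.49 without BMP4 replicate 2 and 0.05 without control replicate 1, and that of Sox9 1433889_at (-0.10) was 0.03 without BMP4 replicate 3. The cause was not tested. Over the left-out arrays these 4 probe sets ranged from -0.05 to 0.15 (Sox4), -0.12 to 0.22 (Sox12), -0.29 to 0.49 (Sox13) and -0.23 to 0.03 (Sox9). The replicate numbers were used as a block in 1 alternative. Deviations of same-numbered arrays correlated at 0.01, -0.003 and -0.072, and those of differently numbered arrays at -0.07 to 0.079. Whether same-numbered samples were handled together is not stated in the labels, and these values cannot settle it. With the replicate block the Sox6 change was 1.03 (limma adjusted p = 0.0458), that of Sox9 was 1.29 (4.83e-05), and no Sox call changed. Without the filter 33 Sox probe sets were tested and Sox6 lost its call, and at the 60th percentile 9 were tested and Sox6 was not among them. Signals at or under 29.1 limit what can be said of Sox5, Sox8 and Sox11.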

Other observations

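Genes of hypertrophic cartilage, the stage after Sox9 activity declines, did not move one way. Of 10 such genes with a probe set (Runx2 and Spp1 were not analysed here), 8 passed the filter. Of these 1 rose and 1 fell, against 5.03% and 5.66% of all 12966 genes tested. Mef2c, a MADS-box factor, had 150.6, 178.4 and 234.1 with BMP4, against 133.9, 127.1 and 98.9 without it (log2 change of 0.57, limma adjusted p = 0.0454). Its call was lost without the filter on low signal (adjusted p = 0.105). A dimmer Mef2c probe set, 1451506_at, rose by 0.75 (limma adjusted p = 0.0314, but 0.0936 without the filter), while its others had no call. Mmp13, a collagenase, was under background with BMP4, at 7.1, 1.7 and 2.5, against 113.1, 120.6 and 110.5 without it, at least 3.94-fold lower (limma adjusted p = 6.22e-06). Its BMP4 values were also under the filter's signal of 23.5, so that it was tested by virtue of its control values. Without the filter its limma adjusted p was 0.00019. Col10a1, the collagen of hypertrophic cartilage, was under background on all arrays.

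Of 10 genes for coactivators and regulators of Sox9, 8 passed the filter, of which 0 rose and 0 fell (limma, with 1 higher and 1 lower at an unadjusted p under 0.05). The smallest p was that of Ep300, a histone acetyltransferase, with a log2 change of -0.20 (limma adjusted p = 0.172). Crebbp, its close relative, named after its values were seen, had -0.10 at its brightest probe set (adjusted p = 0.467), but dimmer probe sets fell, by 0.41 (adjusted p = 0.00781) and 0.39 (0.0499, but 0.0858 without the filter). Of 4 genes known as targets of SoxC factors, 3 passed the filter and 1 rose, Ezh2, a histone methyltransferase (0.54, limma adjusted p = 0.00113). Of 6 epithelial markers 5 passed the filter, and of 5 leukocyte markers 3 did. By the brightest kept probe set 0 of those tested rose and 0 fell (limma, and 0 at an unadjusted p under 0.05). The smallest p was that of Krt14 (0.35, limma adjusted p = 0.37) and of Adgre1 (0.22, adjusted p = 0.734). Under the filter, Krt8 1435989_x_at (-0.91) and Ptprc 1422124_a_at (-0.25) were lower. In the fit without the filter their limma adjusted p was 0.0689 and 0.293. Over all 12966 genes tested 5.03% rose and 5.66% fell, the share to set beside the counts of these lists.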
